A study of Mus musculus with 354 samples.

Results

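Hair cell (HC) genes were followed in single cells that had been sorted as cochlear supporting cells (SCs). The 10 genes were *Ccer2*, *Pvalb*, *Pcp4*, *Cib2*, *Acbd7*, *Insm1*, *Myo7a*, *Pou4f3*, *Gfi1* and *Otof*, chosen by name from the 55367 genes counted per cell, and all 10 were found in the files. The cells comprised 177 CA-ERBB2 cells and 177 Control cells, each genotype on 3 plates of 59 wells. A gene was taken as detected in a cell with at least 1 count. At least 1 of the 10 genes was detected in 180 cells, and none of them in 83 CA-ERBB2 cells and 91 Control cells.

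Both genotypes carried *Fgfr3-iCre* and ROSA-floxed-rtTA/GFP, and the CA-ERBB2 pups carried TetON-CAERBB2 in addition, which encodes a constitutively active form of the receptor ERBB2. Controls were littermates without that transgene. Per the labels, tamoxifen was injected at 75 mg/kg at P0 and P1 to activate iCRE, doxycycline at 100 mg/kg at P2, and cochleae were collected from P3 pups. The treatment is described for all samples, and the Control samples carry no treatment tag of their own. GFP+ cells were sorted singly into plates, with cells of several pups pooled for a plate and with the sex of the pups not determined. The *Fgfr3-iCre* line is described by the study as active mostly in SCs and also in outer HCs, with labelling in HCs biased toward the apex, so that the sort did not exclude HCs by design.

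HCs are the mechanosensory cells of the organ of Corti, and SCs are the epithelial cells that surround them. In development, ATOH1 starts the HC programme, and the transcription factors POU4F3 and GFI1 act after it to keep the programme running. The proteins of the mature cell then include motors of the stereocilia such as MYO7A, calcium-binding proteins such as PVALB and CIB2, and the synaptic calcium sensor OTOF.

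The stretches before the starts of *Ccer2*, *Acbd7* and *Pcp4* are shown because *Ccer2* and *Acbd7* had the highest levels per exonic length in the cells with many HC genes, whereas *Pcp4* was also found in many cells with no other HC gene. Each stretch is the 250 bases before the start of the gene, from RefSeq on GRCm38.p6, written 5′ to 3′ on the strand of the gene. The stretch of *Ccer2* lies at chr7:28755924-28756173 on the plus strand, that of *Acbd7* at chr2:3335918-3336167 on the plus strand, and that of *Pcp4* at chr16:96467356-96467605 on the plus strand. Capitals mark CAGCTG, an E-box of the kind that basic helix-loop-helix factors bind.
Ccer2: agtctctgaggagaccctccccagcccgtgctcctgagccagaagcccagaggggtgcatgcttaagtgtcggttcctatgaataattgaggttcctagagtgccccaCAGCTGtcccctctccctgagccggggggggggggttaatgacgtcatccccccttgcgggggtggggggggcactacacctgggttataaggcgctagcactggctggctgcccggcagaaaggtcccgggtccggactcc
Acbd7: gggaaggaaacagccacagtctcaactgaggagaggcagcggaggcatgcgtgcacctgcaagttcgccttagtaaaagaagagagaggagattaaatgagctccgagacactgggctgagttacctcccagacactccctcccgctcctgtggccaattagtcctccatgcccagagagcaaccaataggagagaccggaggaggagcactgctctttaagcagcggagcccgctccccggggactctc
Pcp4: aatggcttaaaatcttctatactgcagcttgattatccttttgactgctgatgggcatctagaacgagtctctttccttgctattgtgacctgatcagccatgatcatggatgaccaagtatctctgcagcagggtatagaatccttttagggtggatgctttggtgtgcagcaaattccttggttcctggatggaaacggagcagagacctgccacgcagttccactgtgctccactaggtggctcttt
Of the 10 genes, 7 had an entry in the RefSeq table of promoters. CAGCTG, which reads the same on both strands, was found in the stretch of *Ccer2*, at position -142 from the start, and in none of the other stretches of these genes. It was present in 13.0% of the 32851 promoters of the table. CAGATG, searched on both strands, was absent from the stretches of these genes and present in 14.44% of all promoters. CANNTG, which includes both, was present in 66.22% of all promoters, and it was found at 2 places in the stretch of *Ccer2*, at 2 places in that of *Acbd7* and at 0 places in that of *Pcp4*. These matches describe the letters in this window only.

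The libraries were deep and unequal. A median of 2866362 counts was obtained per cell, with extremes of 1443 and 5178221, and 35 cells had under 100000 counts, of which 33 were Control cells. The 24 wells A12 to D12 stood apart, with a median of 15538 genes detected against 3244 in the other 330 wells. In all 24 of them between 2 and 10 of the HC genes were detected. Whether these wells held more than 1 cell was not tested, and results are therefore given with and without them. SC markers were detected unevenly, *Sox2* in 95 cells, *Fgfr3* in 109 and *S100a1* in 188, and the median cell had 2 of the 10 SC markers. The mesenchymal gene *Col1a2* was detected in 250 cells. The label of supporting cell was thus not borne out by markers in every cell. In the 174 cells without any of the 10 HC genes, the medians were 1 SC marker and 1483 genes detected. The part of detection depth in absent markers was not tested. As a background, genes of unrelated tissues were counted in the same cells. *Pomc* was detected in 28 cells, *Myh6* in 15, *Alb* and *Prm1* in 1 each, and *Ins2*, *Prm2* and *Umod* in 0, which allows a share of cells with a count of up to 0.847%. Summed over the background list, the level reached 755.4 CPM in a cell without any of the 10 HC genes and 144.6 CPM in a single-gene cell. A detection of 1 gene at a few counts is therefore not read as expression, and a high CPM in a single cell can also occur for a background gene. Counts of amplified reads are not independent molecules, and such limits cover counting error only.

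The number of HC genes per cell fell into a large group with few and a small group with most of them. None of the 10 genes was detected in 174 cells, exactly 1 in 83, 2 in 35, 3 in 30, 4 in 9 and 5 in 2. Cells with 6 genes numbered 3, none had 7, and 8, 9 and 10 genes were found in 3, 3 and 12 cells. Without wells A12 to D12, 63 cells had 2 to 4 genes, none had 5, and 10 had 6 or more, of which 7 had all 10. The groupings of 6 or more and of 8 or more genes were chosen after this distribution was seen.

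**Figure D1:**
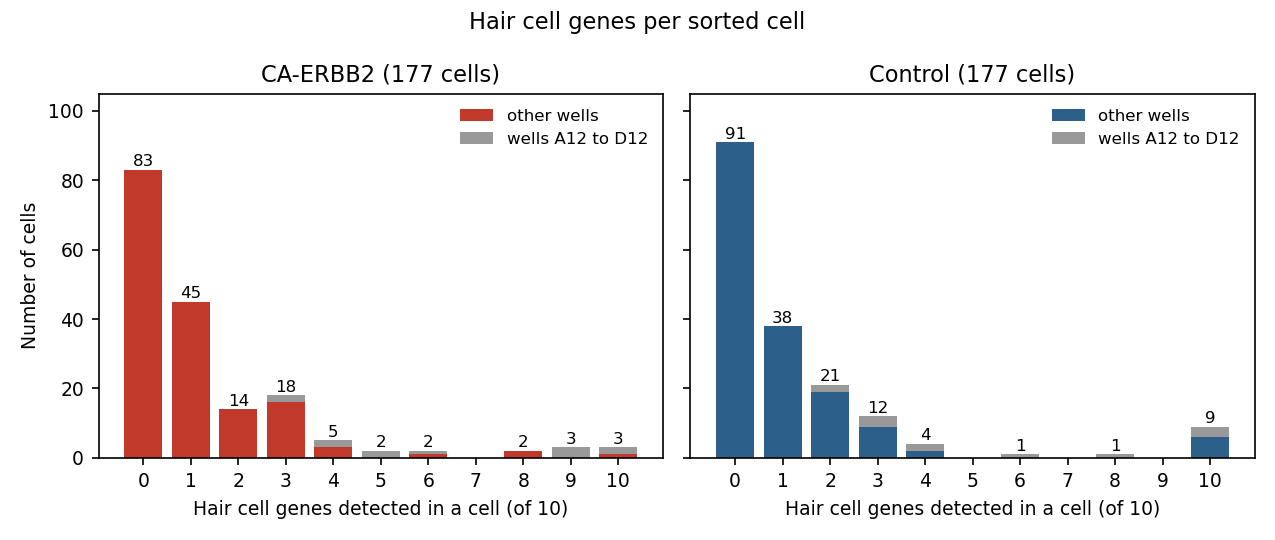
Number of cells (y axis) by the number of the 10 HC genes detected in the cell (x axis), for CA-ERBB2 cells on the left and Control cells on the right, with wells A12 to D12 in grey on top of the other wells. Most cells have 0 or 1 gene, no cell has 7, and 3 CA-ERBB2 and 9 Control cells have all 10.

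The number of HC genes moved with the number of all genes detected. The median cell without any of the 10 genes had 1483 genes detected, the median cell with exactly 1 had 4537, and the median cell with 2 had 9092. The 10 cells with 6 or more HC genes outside wells A12 to D12 had a median of 9476 genes detected, below the median of 10095 in the 63 cells with 2 to 4. With each cell thinned to 100000 counts, the same 10 cells had between 6 and 10 of the genes, with a median of 9.5, and the 63 cells a median of 2. The thinned medians of all genes detected were 7095 in the 10 cells and 7515 in the 63 cells. Pooled over plates, these 10 cells thus had no more genes detected at the median than the 63. Of the 63, however, 27 lay on CA-ERBB2 plate 1 and 15 on Control plate 1, against 1 and 0 of the 10. On CA-ERBB2 plates 1 to 3, medians were 12430, 10944.5 and 2159 for 6 or more, against 11000, 6492 and 7127.5 for exactly 2. On Control plates 2 and 3 they were 10346.5 and 8126 against 6379 and 7177. Single Control plate 2 cells with 3 and 4 genes had 15753 and 13828. The order thus varied between plates, whereas the step from 0 to 4 HC genes ran alongside the number of genes detected. The 11 wells of A12 to D12 with 6 or more HC genes had a median of 16506 genes detected, the highest of these groups.

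**Figure D2:**
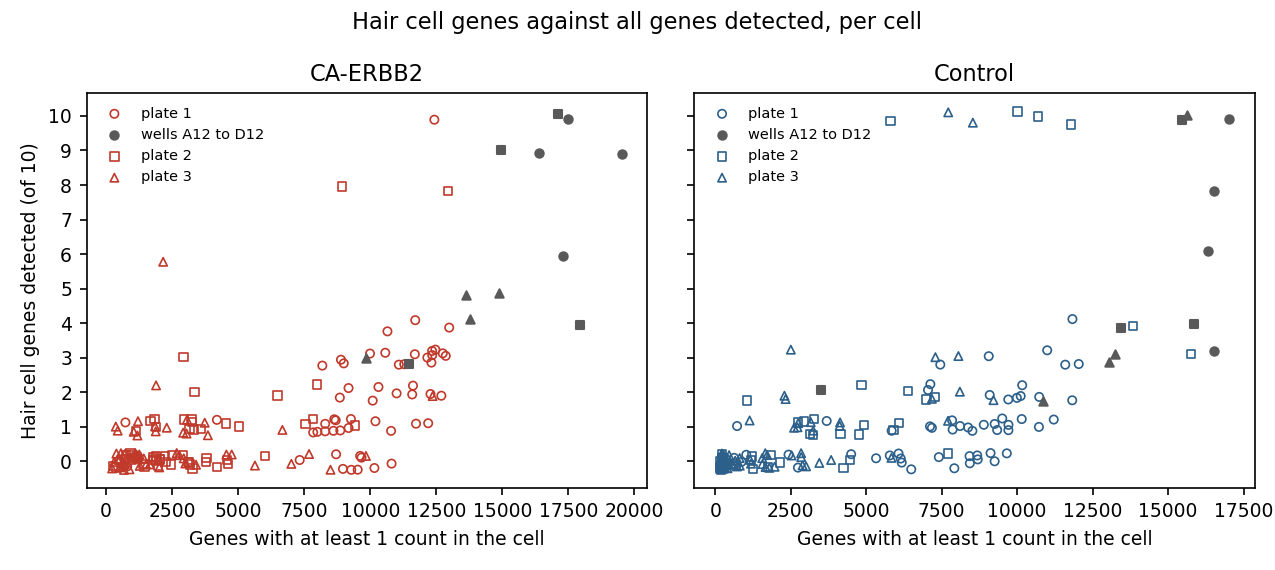
Number of the 10 HC genes detected (y axis, points spread slightly) against the number of all genes with at least 1 count (x axis), 1 point per cell, by plate, for CA-ERBB2 cells on the left and Control cells on the right, with wells A12 to D12 filled in grey. Below 5 HC genes the counts rise with the genes detected, and outside wells A12 to D12 10 cells stand above at 6 or more, at 2159 to 12947 genes detected.

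Single-gene cells rested on a few of the genes. *Cib2*, which encodes a calcium- and integrin-binding protein of the mechanotransduction machinery, was the HC gene found alone in 29 cells. *Pcp4*, which encodes a calmodulin-binding peptide, was found alone in 22 cells, *Pvalb*, a calcium buffer, in 13, and *Acbd7*, an acyl-CoA-binding protein, in 7. These 4 genes accounted for 71 of the 83 single-gene cells. *Myo7a* was found alone in 5 cells, *Otof* in 5 and *Ccer2* in 2. *Insm1*, *Pou4f3* and *Gfi1*, which encode transcription factors, were found alone in no cell.

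Levels in single-gene cells were mostly low and sometimes high. *Pcp4* had a median of 139.7 CPM (a cell's counts scaled to a common total) in the 22 cells where it was alone, with a range from 0.795 to 1137 CPM, and 13 of these cells had at least 100 CPM. *Cib2* had a median of 67.2 CPM in its 29 cells, with 7 of them at 100 CPM or more and a highest value of 1876 CPM. For *Pvalb* the median was 20.6 CPM, 5 of the 13 cells had 3 counts or fewer, and the highest value was 2283 CPM, in a Control cell. The spread within a gene was thus wide even among cells where it was the only HC gene. *Acbd7* alone had a median of 82.6 CPM over 7 cells and reached 57030 CPM in well D5 of CA-ERBB2 plate 3, a cell with 205131 counts and 366 genes detected. *Otof* reached 9817 CPM in well B4 of CA-ERBB2 plate 1, a cell with 729 genes detected, and 1958 CPM in well B11 of CA-ERBB2 plate 2. *Myo7a* reached 864.7 and 598.7 CPM in wells B10 and B4 of CA-ERBB2 plate 2. In each of these 5 cells the other 9 HC genes had 0 counts.

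Cells with 2 to 4 HC genes mainly combined the same widely found genes. Of the 63 such cells outside wells A12 to D12, 36 held only genes among *Pcp4*, *Cib2*, *Acbd7* and *Pvalb*, and 31 held both *Pcp4* and *Cib2*. The most frequent sets were *Pcp4* with *Cib2* in 10 cells and *Pcp4* with *Cib2* and *Acbd7* in 9. Any of *Insm1*, *Pou4f3* and *Gfi1* was found in 5 of the 63 cells. Their levels there were low: *Pou4f3* had 1.18 and 0.938 CPM in 2 cells, and *Insm1* had 2.85 CPM in 1 cell. *Gfi1* had 0.938, 5.26 and 14.9 CPM in 3 cells and 239.4 CPM in well A10 of Control plate 2, where *Pvalb* had 1762 CPM and 1056 genes were detected. Cells of this group thus held the transcription factors rarely, with 1 value above 100 CPM.

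**Figure D3:**
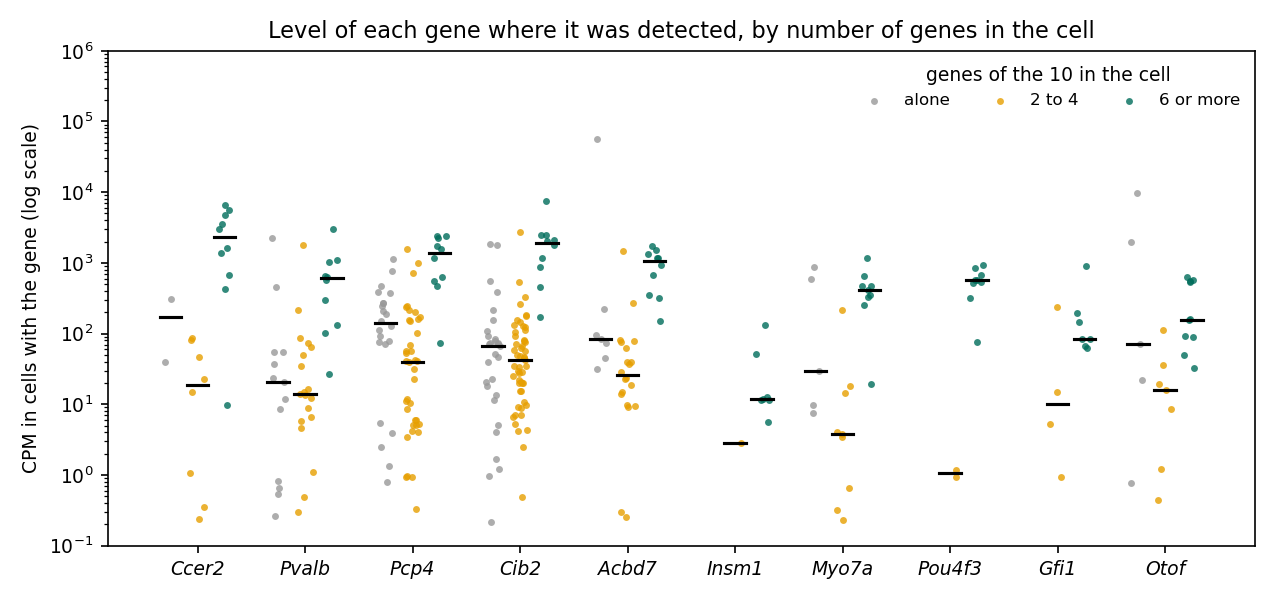
CPM on a log scale (y axis) of each gene in the cells where it was detected (x axis), with cells grouped by whether the gene was alone, in a cell with 2 to 4 genes or in a cell with 6 or more, without wells A12 to D12. Points are cells and bars are medians, which lie highest in the cells with 6 or more genes for all 10 genes, as for *Ccer2* at 2293 CPM against 18.8 CPM in cells with 2 to 4.

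The 10 cells with 6 or more HC genes outside wells A12 to D12 were spread over 5 plates. They comprised well D7 of CA-ERBB2 plate 1, wells A11 and C1 of plate 2 and well C9 of plate 3, and wells B2, B3, B11 and C5 of Control plate 2 and C3 and E2 of Control plate 3. Control plate 1 held none outside wells A12 to D12. All 10 genes were found in D7 of CA-ERBB2 plate 1 and in the 6 Control cells. The 2 CA-ERBB2 plate 2 cells had 8 genes each and lacked *Insm1* and *Gfi1*, and C9 of CA-ERBB2 plate 3 had 6 and lacked *Insm1*, *Gfi1*, *Pou4f3* and *Myo7a*. As the cells were chosen by their HC genes, their values are a description and carry no test.

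Among the transcription factors, *Pou4f3* was the most uniform in these cells. It had 938.7 CPM in D7 of CA-ERBB2 plate 1, 535.3 and 77.0 CPM in A11 and C1 of plate 2, and 0 in C9 of plate 3. In the Control cells it had 578.1, 847.1, 571.8 and 322.9 CPM in B2, B3, B11 and C5 of plate 2, and 670.2 and 511.3 CPM in C3 and E2 of plate 3. So 8 of the 10 cells had at least 300 CPM of a gene whose highest level in any cell with 1 to 4 HC genes was 1.18 CPM, wells A12 to D12 included. *Gfi1*, a transcriptional repressor, had 83.7 CPM in D7 and 0 in the other 3 CA-ERBB2 cells. In the Control cells it ranged from 62.5 to 915.6 CPM, with the highest value in C5 of plate 2. *Insm1*, known from nascent outer HCs, was lower, at 11.4 CPM in D7 of CA-ERBB2 plate 1, 5.70 to 50.6 CPM in the 4 cells of Control plate 2, 11.8 CPM in C3 and 131.2 CPM in E2 of Control plate 3.

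Of the motor and synaptic genes, *Myo7a*, a myosin of the stereocilia, had 1157 CPM in D7 of CA-ERBB2 plate 1, 251.7 and 19.2 CPM in A11 and C1 of plate 2, 0 in C9 of plate 3, and 326.3 to 654.0 CPM in the 6 Control cells. *Otof*, the calcium sensor of the HC synapse, was found in all 10 cells, at 32.96 to 621.8 CPM, with both genotypes spanning most of that range. The highest *Otof* values were 621.8 CPM in A11 of CA-ERBB2 plate 2 and 565.9 CPM in C3 of Control plate 3.

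The calcium-binding and other genes were the most abundant. *Ccer2*, a HC marker of the study that encodes a coiled-coil glutamate-rich protein, had 3493, 428.5, 9.63 and 1359 CPM in the 4 CA-ERBB2 cells D7, A11, C1 and C9. In the 6 Control cells it had 5660, 1602, 2985, 6492, 668.1 and 4680 CPM in the order B2, B3, B11 and C5 of plate 2 and C3 and E2 of plate 3. The lowest value, in C1 of CA-ERBB2 plate 2, lay far below the other 9. *Cib2* ranged from 171.9 CPM in C1 of CA-ERBB2 plate 2 to 7405 CPM in C9 of plate 3, and from 877.2 to 2500 CPM in the Control cells. *Pvalb* had its highest value, 3033 CPM, in the same C9 and its lowest, 27.1 CPM, in B2 of Control plate 2. Of the counts of this C9, 25.65% were mitochondrial, a higher share than in the other 9 cells. *Pcp4* ranged from 72.35 to 2383 CPM and *Acbd7* from 151.7 to 1738 CPM. No single cell was highest for all of these genes.

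Per length, the order of the genes was different. The median over the 10 cells, in CPM per kilobase of exonic length, was 2176 for *Ccer2*, 1974 for *Acbd7*, 1335 for *Cib2*, 1334 for *Pcp4* and 580 for *Pvalb*. It was 230.7 for *Pou4f3*, 44.5 for *Myo7a*, 23.6 for *Gfi1*, 19.9 for *Otof* and 3.70 for *Insm1*. The ranges over cells overlapped between all neighbours in this order. An exon of *Pcp4* overlaps *Igsf5* on the same strand, so that reads in the overlap cannot be told apart.

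**Figure D4:**
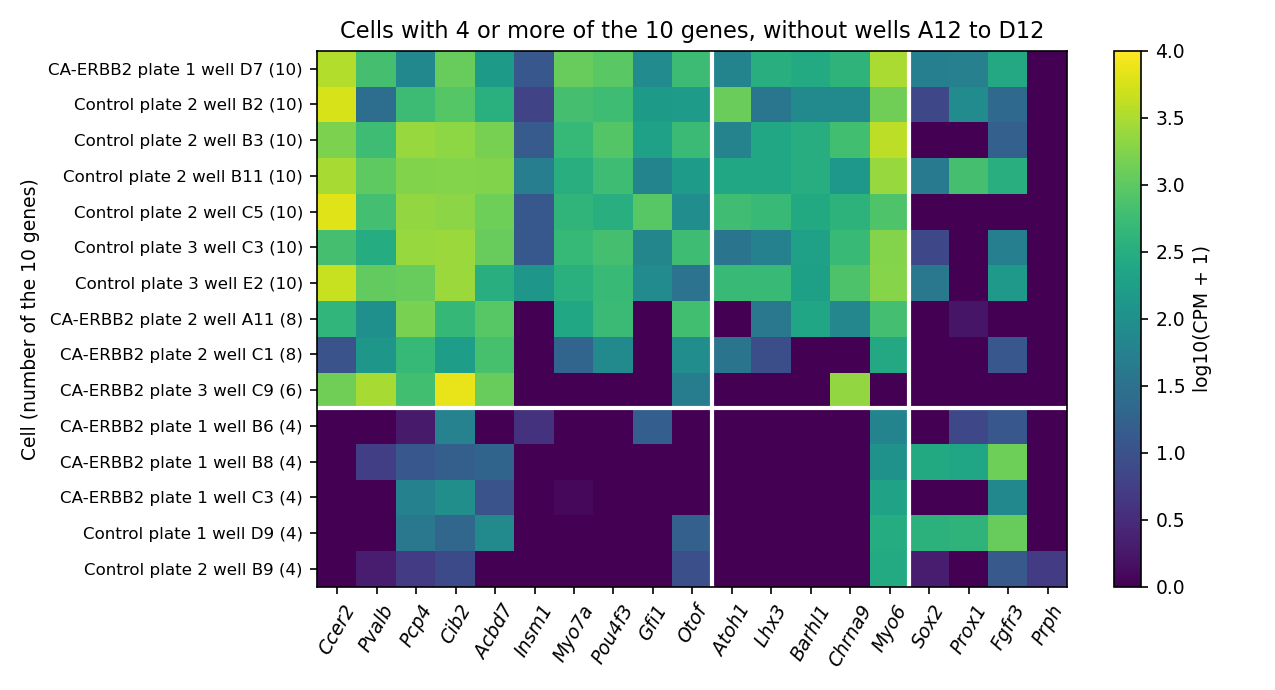
Level of the 10 genes, of 5 other HC genes, of the SC genes *Sox2*, *Prox1* and *Fgfr3* and of the neuronal gene *Prph* (columns), as log10(CPM + 1) in colour, in the 15 cells with 4 or more of the 10 genes outside wells A12 to D12 (rows, number of genes in parentheses). The 10 cells above the white line have 6 or more genes, and in the 5 cells below it, with 4 genes each, *Atoh1*, *Lhx3*, *Barhl1* and *Chrna9* are at 0.

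Other HC genes were found with them. Of 38 HC genes that are not among the 10, the 10 cells had between 3 and 35 detected, with a median of 30, and the 63 cells with 2 to 4 genes had a median of 6. Single-gene cells had a median of 3 and cells without any of the 10 genes a median of 1. *Atoh1*, which starts the HC programme, was detected in 8 of the 10 cells, from 33.0 CPM to 1231 CPM in B2 of Control plate 2, and in 1 of the 63 cells with 2 to 4 genes. *Lhx3* was detected in 9 of the 10 cells and in none of the 63, and *Barhl1* in 8 and 1. *Lhx3* and *Barhl1* encode homeodomain factors of HCs. *Myo6*, a HC myosin, was less selective, with detection in 9 of the 10 cells, in 50 of the 63 and in 37 of the 174 cells without any of the 10 genes.

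The cells differed in genes of the HC types. *Slc26a5*, the motor protein of outer HCs, was detected in 5 of the 10 cells, at 108.0 to 186.5 CPM in E2 of Control plate 3 and in B11 and B3 of Control plate 2, and at 3.79 and 0.338 CPM in D7 and A11 of the CA-ERBB2 plates. *Ocm*, an outer HC calcium buffer, was detected in 4, with 302.5 CPM in C3 of Control plate 3 as its highest level. *Slc17a8*, the glutamate transporter of inner HCs, had 100.9 CPM in B2 of Control plate 2, 73.3 CPM in C3 of Control plate 3 and 67.4 CPM in C1 of CA-ERBB2 plate 2, and 0 in the other 7. *Fgf8*, a ligand of inner HCs, had 97.5 CPM in the same B2 and 9.63 CPM in the same C1, and 0 in the other 8. B2 had *Slc17a8* and *Fgf8* without *Slc26a5* and *Ocm*. The reverse was found in B3 of Control plate 2, with *Slc26a5* at 186.5 CPM and *Ocm* at 165.3 CPM. It was also found in A11 of CA-ERBB2 plate 2, at 0.338 and 64.9 CPM. No HC type was assigned, since C3 of Control plate 3 and C1 of CA-ERBB2 plate 2 had both *Slc17a8* and *Ocm*. These 4 genes were chosen for this paragraph after their values were seen, except that they stand on the list of 38.

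SC genes were detected unevenly in the 10 cells. Summed over the 10 SC markers, their level was 752.7 to 4789 CPM with a median of 1309 CPM and a median of 5.5 markers detected, against medians of 715.5 CPM and 5 markers in the 63 cells with 2 to 4 HC genes and 238.6 CPM and 2 markers in single-gene cells. *Sox2* was detected in 5 of them, at 6.27 to 52.45 CPM, against 41 of the 63 cells with 2 to 4 HC genes. *Hes5* and *Hey2*, targets of Notch signalling in SCs, were detected in 1 of the 10 cells each, against 28 of the 63 each. The groups came from different plates, with 27 of the 63 on CA-ERBB2 plate 1 and 15 on Control plate 1, against 1 and 0 of the 10. The part of the plates in these shares was not tested. *Prox1* was found in 4 of the 10 cells, with 670.4 CPM in B11 of Control plate 2, a cell that also had *Fgfr3* at 321.2 CPM and 9 of the 10 SC markers. *S100a1* and *Cryab* were found in all 10 cells. The genes *Fgfr3*, in 7 of the 10, and *S100a1* thus were shared between cells rich in HC genes and the remainder.

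Genes of other cell types were counted in the 10 cells as a whole list each. Of the 6 neuronal markers, 1 to 4 were detected per cell, with summed levels from 28.7 to 2690 CPM. *Nefm* and *Nefl* were detected in 9 of the 10 cells each, *Snap25* in 8, *Rbfox3* in 3, *Tubb3* in 2 and *Prph* in none. Of the 5 mesenchymal markers, 0 to 5 were detected, with summed levels of at most 17.1 CPM in 8 of the cells, 853.9 CPM in C9 of CA-ERBB2 plate 3 and 5542 CPM in C1 of CA-ERBB2 plate 2, where all 5 were found. That C1 also had all 4 glial markers, at 501.9 CPM, and a total of 727224 counts. The glial sum was at most 200.7 CPM in the other 9 cells, and the sum of the 4 markers of blood and macrophages at most 90.5 CPM in all 10. The part of these genes in the values of C1 and C9 was not tested.

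Erbb2 itself was measured in the same cells. *Erbb2* had 620.5 CPM in D7 of CA-ERBB2 plate 1, 209.2 CPM in A11, 1.38 CPM in C1 and 0 in C9, and it had 0 counts in all 6 Control cells. *Spp1* had 460.7 CPM in C1 and 276.5 CPM in C9, and at most 0.414 CPM in the other 8. The cell in well B6 of CA-ERBB2 plate 1, with *Gfi1* at 14.9 CPM, *Insm1* at 2.85 CPM and *Pou4f3* at 0, had *Spp1* at 168300 CPM, *Timp1* at 20490 CPM, *Mmp9* at 22150 CPM and *Dmp1* at 1729 CPM.

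Wells A12 to D12 gave cells with many HC genes by a different profile. Of the 24 wells, 11 had 6 or more of the 10 genes, with a median summed level of 1018.5 CPM over the 10 genes, against 9633.7 CPM in the 10 cells outside. All 5 mesenchymal markers and at least 8 of the 10 SC markers were detected in each of the 11 wells. In the wells D12 of CA-ERBB2 plate 1 and D12 of Control plate 1, with 9 and 8 genes, *Pou4f3* had 0.292 and 9.30 CPM and *Otof* 2.34 and 3.10 CPM. In C12 of Control plate 1, with all 10 genes, *Ccer2* had 895.2 CPM and *Pou4f3* 103.3 CPM. The same number of genes detected was therefore reached at very different levels.

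Co-detection was asymmetric between genes. Outside wells A12 to D12, *Pou4f3* was detected in 11 cells, and *Ccer2* in 9 of these, *Cib2* in 10, *Pcp4* in 10 and *Pvalb* in 10. Of the 92 cells with *Cib2*, in contrast, 10 had *Pou4f3*, or 10.9%. *Insm1* was detected in 8 cells, all of which had *Gfi1*, *Cib2* and *Pcp4*, and 7 of the 8 had *Pou4f3*. *Gfi1* was found in 11 cells, of which 8 had *Pou4f3* and 8 had *Insm1*. Of the 20 cells with *Ccer2*, 9 had *Pou4f3*, and 2 of the 310 cells without *Ccer2* had it. The pair *Pcp4* and *Cib2* occurred in 41 cells, of 70 with *Pcp4* and 92 with *Cib2*. Adding wells A12 to D12 raised the cells with both *Pou4f3* and *Ccer2* from 9 to 18.

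The cells with 6 or more HC genes were chosen by detection of the same genes, with the cutoff set after the distribution was seen. Their share of all counts of a gene was thus partly fixed by this choice and is not a separate check of the co-detection. This share, with wells A12 to D12 included, differed between the genes. It was 99.98% for *Pou4f3*, 99.2% for *Insm1*, 98.5% for *Ccer2*, 93.8% for *Gfi1* and 79.7% for *Myo7a*. It was 70.5% for *Cib2*, 67.5% for *Pvalb*, 64.9% for *Acbd7*, 61.9% for *Pcp4* and 56.8% for *Otof*. Counts of *Otof* in single-gene cells made up 39.8% of its total, and those of *Acbd7* 24.2%. For these genes a sum per plate thus carries single cells with 1 high value as well as cells rich in HC genes.

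The genes with the pattern most like that of the 10 genes were found by the mean over 6 plates of the Pearson correlation across the 59 cells of a plate between log2(CPM + 1) of a gene and the mean of log2(CPM + 1) over the 10 genes. Of 21816 genes that were detected in at least 10 cells, the first was *Chrna9*, a subunit of the acetylcholine receptor of HCs, with a mean r of 0.871. It was followed by *Rasd2* at 0.863, *Grxcr2* at 0.844, *Defb25* at 0.827, *Ppp1r27* at 0.816, *Gm13373* at 0.813, *Tmem255b* at 0.794, *Barhl1* at 0.794, *Mindy4b-ps* at 0.790 and *Gipc3* at 0.784. *Grxcr2* and *Gipc3* are known as deafness genes of HCs. Without wells A12 to D12 the mean r of *Chrna9* was 0.755 and it remained first, whereas *Barhl1* moved from place 8 to 25. Among the first 50 genes were 11 of the 38 other HC genes. The cells of a plate share depth and genes detected, and the 59 points of a plate include few cells rich in HC genes.

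Detection of the 10 genes was then compared between genotypes over plates. *Ccer2* was detected in 9, 5 and 3 cells of the 59 on CA-ERBB2 plates 1, 2 and 3 and in 6, 6 and 3 on the Control plates. *Pvalb* was detected in 18, 7 and 7 against 9, 15 and 5, and *Pcp4* in 24, 13 and 8 against 18, 15 and 16. The plates of the genotypes overlapped for each of the 3. *Cib2* was detected in 38, 12 and 10 cells against 26, 14 and 14, and *Acbd7* in 14, 7 and 8 against 9, 6 and 10. CA-ERBB2 plate 1 gave the highest count of its genotype for 9 of the 10 genes and was level with plate 2 for *Pou4f3*, and its median cell had 10198 genes detected, against 2954 and 1853 on CA-ERBB2 plates 2 and 3. *Myo7a* was detected in 9, 8 and 3 against 6, 8 and 5, and *Otof* in 8, 5 and 2 against 5, 7 and 4. *Insm1* was detected in 4, 1 and 0 against 1, 5 and 3, *Pou4f3* in 5, 5 and 0 against 2, 5 and 3, and *Gfi1* in 6, 3 and 0 against 1, 6 and 3. The counts of 0 on CA-ERBB2 plate 3 allow a share of up to 5.08%, and this limit covers counting error only. At at least 1 count, none of the 10 genes had plates of the 2 genotypes that did not overlap. The share of all genes for which this holds was not counted.

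**Figure D5:**
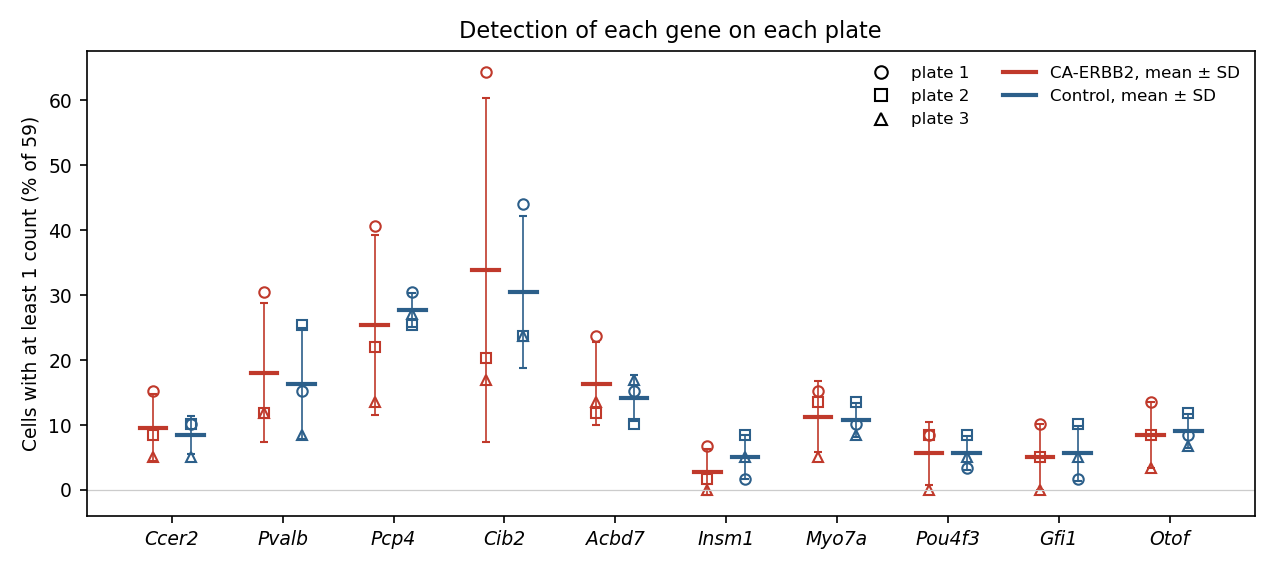
Share of the 59 cells of a plate with at least 1 count (y axis, percent) for each of the 10 genes (x axis), with 1 symbol per plate, bars at the mean and whiskers of 1 SD over 3 plates. The genotypes overlap for every gene, and CA-ERBB2 plate 1, with 38 of 59 cells for *Cib2*, lies above CA-ERBB2 plates 2 and 3.

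In shares of cells with at least 1 count the genotypes differed by less than the spread between plates. *Cib2* was detected in 33.9% ± 26.5 (SD, n = 3 plates) of CA-ERBB2 cells and in 30.5% ± 11.7 of Control cells, and *Pcp4* in 25.4% ± 13.9 and 27.7% ± 2.59. *Pou4f3* was detected in 5.65% ± 4.89 and 5.65% ± 2.59. In the 10 comparisons, two-sided exact permutation tests over the plates gave unadjusted p between 0.6 and 1, where 3 plates against 3 cannot go below 0.1. At at least 1 count, 5 genes were higher in CA-ERBB2 cells and 4 lower. With cells thinned to 100000 counts, all 10 were lower in CA-ERBB2 cells, from -1.38 to -14.42 percentage points, with the last for *Pcp4* at an exact permutation p of 0.1, the smallest possible. All 10 were also lower at a level of at least 100 CPM, by 0.565 to 9.605 percentage points, and without CA-ERBB2 plate 1, by 1.41 to 11.9 percentage points. Without CA-ERBB2 plate 3, in contrast, 9 of the 10 were higher in CA-ERBB2 cells. The direction therefore changed with the plate left out. At at least 100 CPM the plates of the genotypes did not overlap for *Pcp4* and *Cib2*, whereas those of the remaining genes did. *Pcp4* reached this level in 3, 5 and 4 cells of the CA-ERBB2 plates against 8, 11 and 10 of the Control plates. For *Cib2* these numbers were 5, 5 and 4 against 6, 6 and 10. The thinned comparison leaves out 2 CA-ERBB2 and 33 Control cells.

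The shares of single-gene and multi-gene cells gave the same picture. Exactly 1 gene was found in 16, 15 and 14 cells of the CA-ERBB2 plates and in 19, 10 and 9 of the Control plates, or 25.4% ± 1.69 (SD, n = 3) and 21.5% ± 9.33 (two-sided exact permutation p = 0.5). Of 2 or more genes there were 32, 10 and 7 cells against 19, 15 and 14, or 27.7% ± 23.1 and 27.1% ± 4.48 (n = 3, exact permutation p = 1). CA-ERBB2 plate 1 set the spread, and without it the difference was -12.7 percentage points, at p = 0.1 in the exact permutation test of the 2 plates left against 3. Of 4 or more genes there were 8, 5 and 4 cells against 4, 8 and 3, or 9.60% ± 3.53 and 8.47% ± 4.48 (n = 3, exact permutation p = 0.8). Without wells A12 to D12 these numbers were 4, 2 and 1 against 1, 5 and 2. All 10 genes were found in 2, 1 and 0 cells of the CA-ERBB2 plates and in 1, 5 and 3 of the Control plates, or, without wells A12 to D12, in 1, 0 and 0 against 0, 4 and 2. Control plates 2 and 3 thus held 6 of the 7 cells outside these wells that had all 10 genes, and a test on this number was not made because the grouping was chosen after the cells were seen.

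Counts summed per plate were compared between genotypes with edgeR, with p-values adjusted over all genes. In bulk sums, fewer cells with a gene and less RNA of it per cell cannot be told apart. None of the 10 genes was called at an adjusted p under 0.05, against 0.00467% of the 21416 genes tested, which is 1 gene. At an unadjusted p under 0.05 there were 2 of the 10, *Pcp4* and *Ccer2*, against 5.16% of all genes. DESeq2 also called none of the 10, against 1.10% of all genes, and had 4 at an unadjusted p under 0.05, against 8.19% of all genes. The log2 fold change, CA-ERBB2 relative to Control, was negative for 9 of the 10, beside 10886 of the 21416 genes tested. Its median over the 10 was -1.34, beside a median of -0.02 over all genes tested.

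The plate values overlapped between genotypes for all 10 genes, and the share of all genes tested with such an overlap was not counted. *Ccer2* had 61.4, 82.8 and 45.9 CPM, scaled by TMM, on the CA-ERBB2 plates and 15.2, 567.8 and 233.6 CPM on the Control plates, a log2 fold change of -2.10 ± 0.94 (SE, edgeR adjusted p = 0.911). Control plates 2 and 3 were high and Control plate 1 lay below all CA-ERBB2 plates. *Pcp4* had 26.6, 62.8 and 39.0 CPM against 33.2, 297.8 and 232.2 CPM, a log2 fold change of -2.13 ± 0.75 (SE, edgeR adjusted p = 0.911), with Control plates 2 and 3 again the highest. *Gfi1* had 2.20, 1.22 and 0 CPM against 0.862, 53.4 and 7.11 CPM, with a log2 fold change of -4.16 ± 1.89, and *Insm1* 0.393, 0.064 and 0 CPM against 0.042, 2.33 and 6.14 CPM, with -4.20 ± 2.21 (SE, both at an edgeR adjusted p = 0.911). For both genes the highest values were again on Control plates 2 and 3. Without Control plate 2 the log2 fold change was -1.81 for *Gfi1* and -0.98 for *Ccer2*. *Pou4f3* had 15.5, 20.4 and 0 CPM against 1.52, 77.9 and 47.3 CPM. *Cib2* and *Acbd7* were high on CA-ERBB2 plate 3, at 312.1 and 202.6 CPM, and the log2 fold changes were -0.55 ± 0.95 and -0.04 ± 1.20. *Otof* was the gene with a positive value, 0.32 ± 1.11, with 31.9, 35.8 and 1.30 CPM against 3.28, 30.9 and 21.1 CPM. Control plates 2 and 3 were those that held the 6 Control cells with all 10 genes outside wells A12 to D12.

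Of the 38 other HC genes, 37 were tested and none was called by edgeR, with 6 at an unadjusted p under 0.05, against 5.16% of all genes. Their median log2 fold change was -1.77, and 33 were lower in CA-ERBB2 plates, beside 10886 of the 21416 genes tested. In each of the 6 Control cells with all 10 genes outside wells A12 to D12, 25 to 35 of the 38 were detected. The 33 genes are therefore not separate observations. *Atoh1* had 2.39, 0.595 and 0 CPM on the CA-ERBB2 plates and 1.06, 73.0 and 26.8 CPM on the Control plates, a log2 fold change of -5.07 ± 1.87 (SE, edgeR adjusted p = 0.911). DESeq2 called *Dll3*, a Notch ligand of nascent HCs, with a log2 fold change of -4.29 at an adjusted p of 0.0087. *Dll3* had 2.55, 0.137 and 0.299 CPM on the CA-ERBB2 plates and 10.7, 31.4 and 14.1 CPM on the Control plates. *Dll3*, *Pcdh15* and *Anxa4* were lower on every CA-ERBB2 plate than on any Control plate. Plate values of the remaining genes of this list overlapped. Without a filter on low counts, edgeR called *Atoh1* at an adjusted p of 0.0342 and *Lhfpl5*, a subunit of the mechanotransduction complex, at 0.0425, with log2 fold changes of -5.05 and -3.13. That fit called 285 of 39201 genes, or 0.727%. *Dll3* and *Lhfpl5* are named because they were called there, and *Pcdh15* and *Anxa4* because their plates did not overlap, all after their values were seen. Without wells A12 to D12 the medians were -1.48 for the 10 genes and -2.01 for the other HC genes, beside -0.03 for all genes.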

How the data were processed

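Single GFP+ cells were prepared with SMART-Seq Single PLUS, whose protocol in the labels names no molecular identifiers. The study's text does speak of UMI counts per cell, but its methods describe no step that collapses reads by identifier, and the values were treated as reads. Per the study's methods, adapters were removed and STAR 2.7.6a aligned the reads to GRCm38, after which featureCounts of Subread 2.0.1 assigned them by strand to exons of Gencode M25. The authors deposited these read counts, 1 whole number for each gene of a cell, unscaled. Plates were identified by the number in the titles and served as the replicates, so that cells were not replicates. Whether the 3 plates of a genotype held separate litters is not stated in the labels.

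All cells were used. Levels are CPM of a cell's total. Each cell was also thinned to 100000 counts (seed 11). Counts summed per plate were tested with edgeR 4.0.16 in R 4.3.3 (TMM factors of 0.688 to 1.325, filterByExpr, quasi-likelihood test, Benjamini-Hochberg adjustment over all genes) and with DESeq2 1.42.0. Plate shares were tested by exact permutation, two-sided. Limits for a share of 0 use 3 cells. The members and gene lists were chosen with earlier results of these data known, and are not independent of them. Genes named are the 10, the first 6 of each list or the 5 most detected in cells with 4 or more of the 10, and the 10 most similar genes, and others are said to be chosen after their values were seen or were named because they describe the HC type, the SC state or the study's network genes. Exonic lengths were taken from Gencode M21, which shares the build and holds all 85 listed genes. Promoters came from RefSeq on GRCm38.p6. A gene of the background list is not reported here. No cells were clustered, and no doublet caller was run.

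On data simulated from the plates with 20335 genes, the edgeR step called 18.8% of those altered 8-fold, 68.5% of those altered 64-fold and 8 unaltered genes.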

Additional observations from a re-analysis of the deposited data

How the results depend on the processing

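None of the 10 genes was called under any of the 11 alternatives to the edgeR test. Of the other HC genes, DESeq2 called 1 and edgeR without a filter on low counts called 2, and leaving out single plates called 0. The log2 fold change of *Acbd7* was 0.03 with DESeq2 and 0.065 without wells A12 to D12, and lay between -1.92 and 0.98 when plates were left out in turn. That of *Otof* was -0.004 with the replicate block and -0.18 to 0.91 without single plates, and that of *Myo7a* -1.83 to 0.004. It stayed negative for the other 7 genes when plates were left out in turn, at -2.66 to -0.98 for *Ccer2*, -2.28 to -0.25 for *Pvalb*, -2.63 to -1.64 for *Pcp4*, -2.36 to -0.08 for *Cib2*, -6.42 to -2.95 for *Insm1*, -2.48 to -1.04 for *Pou4f3* and -5.07 to -1.81 for *Gfi1*. The value nearest 0 came without CA-ERBB2 plate 2 for *Cib2*, without Control plate 3 for *Insm1* and without Control plate 2 for the other 5. A filter to cells with at least 100000 counts and under 20% mitochondrial counts left out C9 of CA-ERBB2 plate 3, among others. With it the log2 fold change went from -0.86 to -2.39 for *Pvalb* and from -0.55 to -1.56 for *Cib2*. No sign among the 10 genes changed with this filter. Over all genes, edgeR called 1, DESeq2 235 and edgeR without the filter 285. The genotype differences in shares of cells, in percentage points, CA-ERBB2 relative to Control, changed sign in many settings. The cause was not tested. For exactly 1 gene the difference of 3.96 became -0.717 after thinning, -3.96 at 100 CPM and -0.669 in cells with at least 100000 counts and under 20% mitochondrial counts. For 2 or more genes the difference of 0.565 became -9.23 after thinning, -4.52 at 10 CPM, -3.96 at 100 CPM and -7.49 with the cell filter. For 4 or more genes the difference of 1.13 became -2.66 after thinning, -0.565 at 10 counts, -0.565 at 10 CPM, -1.70 at 100 CPM, -2.997 with the cell filter, -0.606 without wells A12 to D12 and -1.13 without *Pcp4*, *Cib2* and *Acbd7*. Single plates left out gave 0.848 to 9.32 for exactly 1 gene, -12.7 to 8.47 for 2 or more, -0.848 to 3.67 for 4 or more, -1.98 to 1.41 for 6 or more and -2.26 to 1.13 for 8 or more.

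For detection of single genes, thinning gave -2.66 for *Ccer2*, -5.03 for *Pvalb*, -3.79 for *Cib2*, -1.38 for *Acbd7* and -4.03 for *Myo7a*. A level of 10 CPM gave -1.13 for *Ccer2*, -2.83 for *Pvalb* and -1.13 for *Acbd7*, and 100 CPM gave -1.13, -2.26, -4.52, -1.13 and -2.83 for *Ccer2*, *Pvalb*, *Cib2*, *Acbd7* and *Myo7a*. The cell filter gave -2.33, -5.64, -4.06, -2.07 and -3.17 for the same 5 genes, and leaving out wells A12 to D12 gave -0.606 for *Myo7a*. Single plates left out gave -1.69 to 3.39 for *Ccer2*, -4.52 to 6.21 for *Pvalb*, -9.89 to 3.67 for *Pcp4*, -11.9 to 11.9 for *Cib2*, -1.41 to 4.52 for *Acbd7*, -1.41 to 3.67 for *Myo7a*, -3.11 to 1.98 for *Gfi1* and -3.11 to 1.98 for *Otof*. The plate numbers are shared between genotypes in the labels, without a statement that they mark a shared day. Deviations of same-numbered plates correlated at 0.215, 0.082 and 0.077 across 21416 genes, and each plate correlated best with its own number, which is a hint from the data and not from the design. The fit with the replicate block called 0 of the 10 genes and 0 of the other HC genes. Depth limits detection in the 35 cells with under 100000 counts.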

Other observations

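The following 3 genes of the list of other HC genes were chosen after their values were seen. *Slc26a5* reached 4461 CPM in 1 of the 174 cells in which none of the 10 genes was detected, and *Calb2*, a calcium buffer, 6589 CPM in such a cell, against at most 186.5 and 2697 CPM in the 10 cells with 6 or more outside wells A12 to D12. *Tmc1*, a channel subunit of HC mechanotransduction, was detected in 25 of the 174 cells without any of the 10 genes, in 28 of the 83 single-gene cells and in 3 of the 10 cells with 6 or more.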
